A study of Homo sapiens with 21 samples.

Results

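The genes described here are 8 genes whose products move acid, lactate and bicarbonate across the membrane of a cancer cell: the carbonic anhydrases CA9, CA12 and CA2, the lactate carriers SLC16A1 (MCT1) and SLC16A3 (MCT4), their partner BSG (basigin), and the bicarbonate transporters SLC4A2 and SLC4A7. They were chosen by symbol, with no measured value in the rule, and are 8 of the 20970 genes listed in at least 1 of the 4 tables of RNA-seq values. All 8 were listed in the tables of FADU and of BFTC909 cells with Scramble-si and METTL4-si and in the table of FADU cells with an overexpressed gene. The table of METTL4 mutant cells listed 7 of them, and CA12 was not analysed there.

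A cell that lives on glycolysis makes lactic acid and has to send both the lactate and the proton out. SLC16A3 and SLC16A1 each carry 1 lactate ion together with 1 proton, and both need basigin, a glycoprotein with immunoglobulin domains, to reach the plasma membrane. CA9 and CA12 are membrane enzymes with their active site outside the cell, where they turn carbon dioxide and water into bicarbonate and a proton, while CA2 does the same reaction in the cytosol. SLC4A7 brings bicarbonate into the cell together with sodium, and SLC4A2 exchanges bicarbonate for chloride. CA9 and SLC16A3 are textbook targets of HIF-1, the transcription factor that cells stabilise at low oxygen.

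The study asked what METTL4, an adenine methyltransferase of DNA, does to gene expression in hypoxic cancer cells. FADU is a human head and neck cancer line and BFTC909 (BFTC-909 in the labels) a human cancer line of the renal pelvis. Each line had 2 Scramble-si libraries in normoxia (18% O2), 2 Scramble-si libraries in hypoxia (1% O2 for 18 h) and 2 libraries of METTL4-si cells (METL4-si in the labels) in hypoxia. The study's methods describe knockdown cells as stable clones made with lentiviral hairpins, and no METTL4-si library in normoxia was analysed. A second FADU experiment, all in normoxia, had 2 libraries of control cells, 2 of METTL4-OE cells that overexpressed METTL4 and 2 of RP11-390F4.3-OE cells that overexpressed this long noncoding RNA. The third was all in hypoxia and had 1 library of the CRISPR control (WT in the labels) and 1 library each of 2 METTL4-DPPW-mut clones, in which prime editing had changed the catalytic motif of METTL4. Overexpression cells came from stable transfection and each mutant clone grew from 1 cell, so the clone and the condition cannot be told apart there. The same holds for the METTL4-si and Scramble-si cells where they were such stable clones.

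HIF binds DNA at the core ACGTG or GCGTG, and the bases before the start of 3 members called higher in hypoxia in at least 1 line are shown for these letters. They are the 250 bases upstream of the RefSeq start on GRCh38.p14, 5′ to 3′ on the strand of the gene, and capitals mark either core or its reverse complement, CACGT or CACGC.
CA9: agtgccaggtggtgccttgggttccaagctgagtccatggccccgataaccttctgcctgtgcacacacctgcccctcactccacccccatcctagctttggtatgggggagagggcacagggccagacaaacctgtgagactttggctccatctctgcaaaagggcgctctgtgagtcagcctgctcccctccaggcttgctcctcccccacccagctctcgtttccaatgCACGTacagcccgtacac
CA12: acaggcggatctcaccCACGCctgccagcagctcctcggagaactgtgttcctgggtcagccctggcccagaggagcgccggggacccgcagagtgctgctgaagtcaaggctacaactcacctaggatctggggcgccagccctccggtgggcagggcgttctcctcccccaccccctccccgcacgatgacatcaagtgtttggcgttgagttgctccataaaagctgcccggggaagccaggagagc
SLC16A3: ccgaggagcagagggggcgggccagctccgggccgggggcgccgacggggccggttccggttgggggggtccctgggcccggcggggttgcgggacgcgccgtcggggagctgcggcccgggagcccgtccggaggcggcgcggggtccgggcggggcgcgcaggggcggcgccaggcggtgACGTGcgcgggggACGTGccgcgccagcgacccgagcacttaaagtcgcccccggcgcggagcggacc
The CA9 bases are chr9:35673678-35673927 on the plus strand, and their single CACGT begins 18 bases before the start. The CA12 bases are chr15:63381847-63382096 on the minus strand and hold 1 CACGC and no ACGTG on either strand. The SLC16A3 bases are chr17:82228792-82229041 on the plus strand, with ACGTG 68 and 55 bases before the start. This start, 1 of 5 RefSeq starts of the gene, was chosen for display because its window holds ACGTG. Which start these cells use was not examined. Over windows of 300 bases, 250 before and 50 after the start, ACGTG or its reverse complement occurred in 21.4% of all 35116 RefSeq promoters and GCGTG in 36.5%. Among the members, ACGTG occurred in 1 of 1 window of CA9, 0 of 1 of CA12, 1 of 5 of SLC16A3, 1 of 2 of BSG, 2 of 4 of SLC4A2 and 0 of 2 of SLC4A7. GCGTG occurred in 0 of 1, 1 of 1, 2 of 5, 1 of 2, 4 of 4 and 1 of 2 windows of the same genes. The 2 SLC4A2 windows with ACGTG overlap and hold the same ACGTG sites. A letter match of this kind describes the window and shows no binding. SLC16A1 had no entry in the table used, and the window of CA2 is not shown here.

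A value is a TMM-normalized CPM, that is reads of a gene scaled by depth, with the libraries of 1 table on a common scale, and levels were compared within a table only. Per library, between 17781791 and 25410656 reads lay on genes, so 1 read was worth 0.0298 to 0.0503 of a value. No pair of libraries with the same label agreed within sampling noise (chi-square per degree of freedom of 2.11 or more). Nothing in the labels says that libraries of a group came from separate cultures, so p-values measure the spread between these libraries, which may be technical. METTL4 mRNA itself was 26.6 and 25.3 in the FADU Scramble-si libraries in hypoxia and 24.2 and 27.1 in the libraries labelled METTL4-si (log2 fold change -0.02, SE 0.09, adjusted p = 0.900), so the knockdown cannot be read from the RNA in FADU, and METTL4-si stands here for the label of a library. In BFTC909 it was 19.0 and 15.6 against 14.4 and 12.2 (log2 fold change -0.36, SE 0.13, adjusted p = 0.0717). In the METTL4-OE cells it was 158 and 139, against 35.4 and 32.7 in the control cells (log2 fold change 2.09, SE 0.07, adjusted p = 4.32e-11). Expression of RP11-390F4.3 was not analysed here.

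All 12 markers of squamous epithelium were at 1 or more in every FADU library. In BFTC909, 10 of these 12 and 7 of 10 urothelial markers were at 0 or had no row, the uroplakins UPK1A, UPK1B, UPK2 and UPK3A among them, and 7 to 9 of 11 fibroblast markers were at 1 or more, with DCN and PDGFRA at 0 or without a row. The summed value of the fibroblast markers moved with the groups of BFTC909, being 1401 and 1519 in normoxia, 5535 and 5794 in hypoxia, and 3450 and 3575 in the libraries labelled METTL4-si. Its part in the BFTC909 results was not tested. At most 2 of 8 leukocyte markers and 3 of 6 endothelial markers were at 1 or more in any library. Neither line comes from breast. Among the Scramble-si and METTL4-si libraries, 3 stood apart from the other library of their group by the summed value of 12 markers of luminal breast cells. It was 203 in FADU normoxia replicate 1 and 814 in FADU METTL4-si replicate 1, against 65.8 to 77.0 in the other FADU libraries of the table. TFF1, a secreted marker of these cells, was 26.2 and 135 in these libraries and 0 in the other 4. Of the 12 markers, 5 (TFF3, AGR3, SCGB2A2, ANKRD30A and PIP) were at 0 or had no row in both libraries that stood apart. In BFTC909 METTL4-si replicate 2 the sum was 457, against 133 to 201 in the other 5 libraries, but 9 of the 12 markers, ESR1, TFF1 and PGR among them, were at 0 or without a row in every BFTC909 library, and its difference lay in GATA3 (128, against 0.573 to 0.964) and GREB1 (121, against 1.52 to 10.6). Sums of other lists stood apart in the same libraries. The urothelial sum, which also counts GATA3, was 126 and 326 in these FADU libraries against 32.1 to 68.7 in the other 4, and 149 in the BFTC909 library against 11.7 to 29.3. The fibroblast sum of FADU METTL4-si replicate 1 was 147, against 25.5 in replicate 2. The squamous sum moved with the groups of FADU, being 3682 to 4120 in the Scramble-si libraries against 2416 and 2713 in the libraries labelled METTL4-si. It was 3881 and 3985 in control cells, 3048 and 3167 in METTL4-OE and 3200 and 3383 in RP11-390F4.3-OE cells, and 2571 in the CRISPR control against 1815 and 2180 in the mutant clones. The part of these markers in the results was not tested.

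The RNA of these genes comes from 8 loci on GRCh37 (hg19), the build of the tables. CA9 (ENSG00000107159) lies on chromosome 9 at 35673925-35681156 on the plus strand, CA12 (ENSG00000074410) on chromosome 15 at 63613577-63674045 on the minus strand, and CA2 (ENSG00000104267) on chromosome 8. SLC16A1 (ENSG00000155380) lies on chromosome 1 at 113454469-113500215 on the minus strand, SLC16A3 (ENSG00000141526) on chromosome 17 at 80175810-80219005 on the plus strand, and BSG (ENSG00000172270) on chromosome 19 at 571277-583494 on the plus strand. SLC4A2 (ENSG00000164889) lies on chromosome 7 at 150754297-150773613 on the plus strand and SLC4A7 (ENSG00000033867) on chromosome 3 at 27414212-27525911 on the minus strand. Of the exon bases of CA9, 35.7% are also exon of ARHGEF39 on the opposite strand, and the use of strand in the counting is not given in the sources used here, so reads there cannot be assigned with certainty. The same holds for 3.2% of BSG, 3.6% of SLC16A1, 5.2% of SLC16A3 and 9.4% of SLC4A2, whose exons overlap BSG-AS1, SLC16A1-AS1, CSNK1D and a noncoding RNA without a symbol.

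Hypoxia raised CA9 more than any other member in both lines, and its level was lower in the libraries labelled METTL4-si in hypoxia. In FADU, CA9 was 2.33 and 2.55 in normoxia, 31.0 and 37.8 in hypoxia, and 1.87 and 2.22 in the libraries labelled METTL4-si. The libraries labelled METTL4-si lay below the normoxic ones, and the hypoxic Scramble-si libraries stood far above both. The mean rose 14.1-fold with hypoxia (log2 fold change 3.36, SE 0.14, adjusted p = 6.93e-05, n = 2 per group) and was 16.8-fold lower in the libraries labelled METTL4-si (log2 fold change -3.53, SE 0.14, adjusted p = 5.45e-05). Against normoxia the libraries labelled METTL4-si did not pass the test (log2 fold change -0.17, SE 0.14, adjusted p = 0.399). These p-values are from limma with Benjamini-Hochberg adjustment over all 16324 genes tested, and a gene is called here at an adjusted p under 0.05 with a change of at least 1.3-fold on the log2(value + 1) scale, which understates changes of low genes. A lower value in bulk RNA can come from fewer cells that express a gene or from less RNA per cell, and these cannot be told apart.

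In BFTC909, CA9 was 0.358 and 1.17 in normoxia, which is 8 and 28 reads, 54.0 and 56.2 in hypoxia, and 5.53 and 5.84 in the libraries labelled METTL4-si. The 3 groups did not overlap, and the libraries labelled METTL4-si lay between the others. The rise with hypoxia was 71.9-fold in the mean (log2 fold change 5.03, SE 0.21, adjusted p = 1.18e-05), and the level in the libraries labelled METTL4-si was 9.69-fold lower than in hypoxic Scramble-si cells (log2 fold change -3.07, SE 0.21, adjusted p = 0.000104). Unlike in FADU, the libraries labelled METTL4-si were called higher than normoxia, by 7.42-fold (log2 fold change 1.96, SE 0.21, adjusted p = 0.000245). The hypoxic rise was larger in BFTC909 than in FADU by 1.67 on the log2 scale (SE 0.27, adjusted p = 0.00213 for the difference between lines, over 13595 genes). Over the alternatives this difference ran from 0.99 to 2.42. The difference between METTL4-si and Scramble-si libraries differed between lines by 0.46 (SE 0.27, adjusted p = 0.246) and was not called, and with a pseudocount of 5 it was -0.02. Both METTL4-si comparisons use the same hypoxic Scramble-si libraries as the hypoxia comparisons, so the rise and the lower level in the libraries labelled METTL4-si are not independent measurements.

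**Figure D1:**
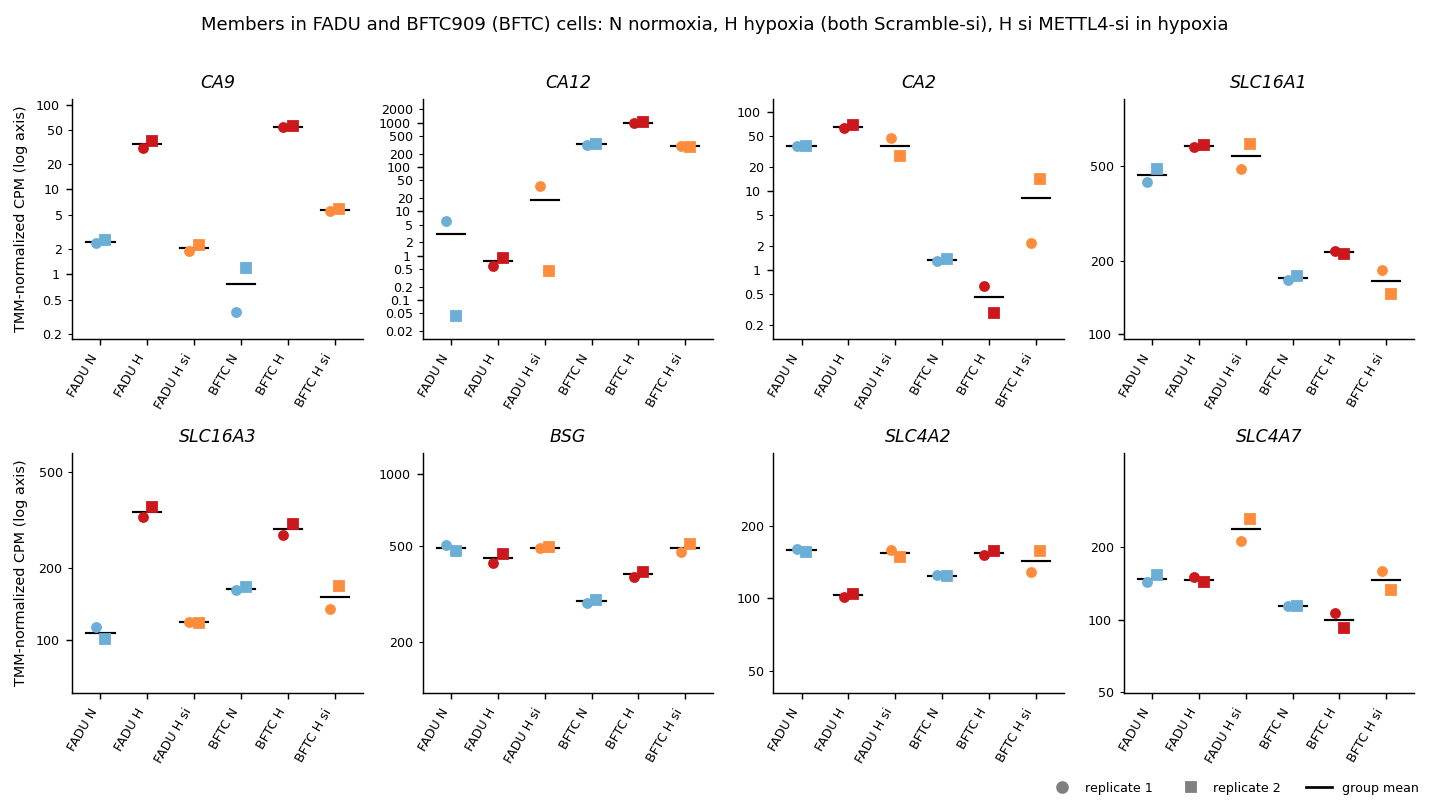
TMM-normalized CPM of the 8 genes (log axis, a scale of its own for each gene) in 12 libraries of FADU and BFTC909 cells, with points for replicates 1 and 2 and a line at the group mean. CA9 and SLC16A3 were high in hypoxic Scramble-si cells of both lines, CA12 was high in BFTC909 and differed widely between FADU replicates.

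CA12, the other membrane carbonic anhydrase, was at the first or the second place of the members per kb of exon in BFTC909 and at the seventh or the last in FADU. In BFTC909 it was 323 and 333 in normoxia, 996 and 1017 in hypoxia, and 303 and 285 in the libraries labelled METTL4-si. The hypoxic Scramble-si libraries stood above the rest, and the libraries labelled METTL4-si lay just below the normoxic ones. It rose 3.07-fold with hypoxia (log2 fold change 1.62, SE 0.06, adjusted p = 1.06e-05) and was 3.43-fold lower in the libraries labelled METTL4-si (log2 fold change -1.77, SE 0.06, adjusted p = 1.73e-05). METTL4-si against normoxia was not called (log2 fold change -0.16, SE 0.06, adjusted p = 0.0681). Per kb of exon, hypoxic BFTC909 cells had 144 of CA12 and 34.5 of CA9. By this measure CA12 was the highest member there, and the carbonic anhydrase with the larger fold change was the lower one. The length counts all annotated exons of a gene, 6998 bases for CA12, 1598 for CA9 and 4418 for BSG. An order of genes per kb therefore depends on which exons the cells use, which was not examined.

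In FADU, CA12 was 6.02 and 0.0447 in normoxia (145 and 1 reads), 0.584 and 0.912 in hypoxia (13 and 20 reads), and 36.5 and 0.445 in the libraries labelled METTL4-si (916 and 10 reads). The high values were those of the 2 libraries with TFF1, and the other 4 libraries were all under 1. No comparison was called with all libraries (log2 fold change -0.64, SE 1.497, adjusted p = 0.788 for hypoxia, and 2.08, SE 1.497, adjusted p = 0.319 for METTL4-si). Without the 2 libraries, hypoxia against normoxia turned to 0.74 (adjusted p = 0.00312, from 1 normoxic library with 1 read) and METTL4-si against hypoxia to -0.27 (adjusted p = 0.257). Leaving out METTL4-si replicate 2 instead gave 4.43 and a call (adjusted p = 0.00114). FADU normoxia replicate 1 had 0.165 of the CA12 value of METTL4-si replicate 1, and 6 breast markers, ESR1, GATA3, TFF1, PGR, GREB1 and AGR2, had ratios of 0.190 to 0.253 between the same libraries. The ratio of TRPS1, which other FADU libraries had at up to 69.7, was 0.526. Only markers detected in METTL4-si replicate 1, the library with the highest marker sum, were given a ratio. With all libraries, the lines were not called different for CA12 in either response (2.25, SE 1.73, adjusted p = 0.376 for hypoxia, and -3.85, SE 1.73, adjusted p = 0.132 for METTL4-si). Without the 3 libraries that stood apart they were (0.88, adjusted p = 3.48e-05, and -1.46, adjusted p = 7.77e-07), but FADU normoxia and both METTL4-si groups then had 1 library each, assumed to vary like the other groups, with 1 and 10 reads of CA12 in those of FADU. CA12 is itself a gene that luminal breast cells express, and the part of other cells' RNA in its FADU values was not tested.

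**Figure D2:**
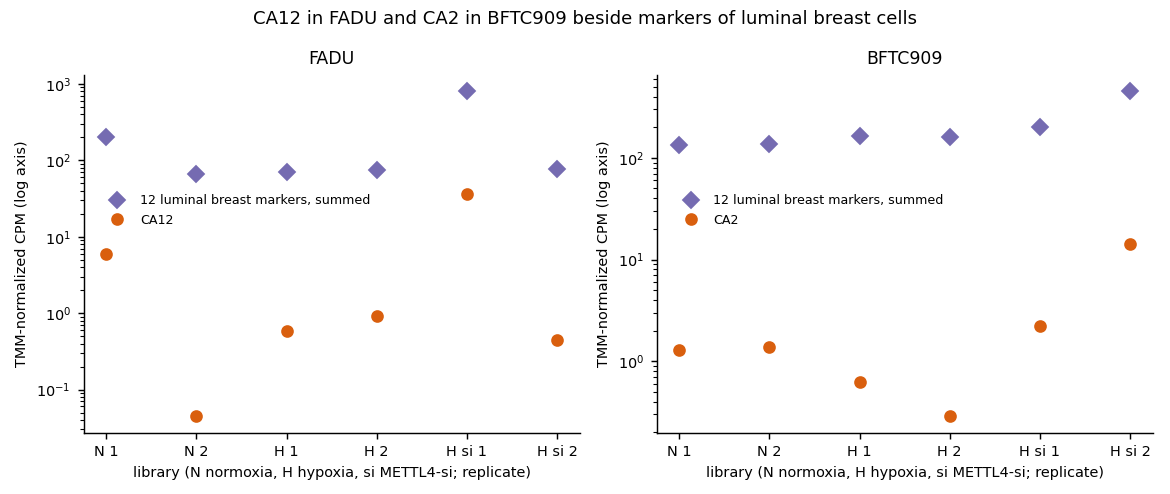
CA12 in FADU (left) and CA2 in BFTC909 (right) as TMM-normalized CPM on a log axis, beside the summed value of 12 luminal breast markers, in each library (N normoxia, H hypoxia, si METTL4-si, and the replicate). The FADU libraries with the highest marker sums, 203 and 814, had the highest CA12 values, and the BFTC909 library with the highest sum, 457, had the highest CA2 value.

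CA2, the cytosolic enzyme, lay in the middle of the members per kb of exon in FADU groups with Scramble-si or METTL4-si. In those of BFTC909 it lay at the seventh or the last place. Its values ranged from 27.8 to 68.0 in the FADU table and from 0.287 to 14.1 in that of BFTC909, tables that were scaled separately. In FADU it was 37.6 and 37.1 in normoxia, 63.4 and 68.0 in hypoxia, and 46.4 and 27.8 in the libraries labelled METTL4-si. The groups did not overlap for hypoxia, and METTL4-si replicates lay on either side of the normoxic values. The rise with hypoxia was called (log2 fold change 0.80, SE 0.21, adjusted p = 0.0357), and so was the lower level in the libraries labelled METTL4-si (log2 fold change -0.85, SE 0.21, adjusted p = 0.0211). The hypoxia call was lost when any 1 of the 4 compared libraries was left out (log2 fold change 0.75 to 0.85, adjusted p from 0.144 to 0.194), and the METTL4-si call when either hypoxic Scramble-si library was. Without METTL4-si replicate 1 and normoxia replicate 1, the libraries that stood apart, METTL4-si against hypoxia was -1.21. Each of those groups then had 1 library, and a p-value for such a group rests on the spread of the other groups. Without METTL4-si replicate 1 alone, METTL4-si was called lower than normoxia (log2 fold change -0.41, adjusted p = 0.00181), against -0.06 (adjusted p = 0.863) with it.

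In BFTC909, CA2 was 1.298 and 1.384 in normoxia (29 and 33 reads), 0.626 and 0.287 in hypoxia, which is 13 and 6 reads, and 2.20 and 14.1 in the libraries labelled METTL4-si. The values were low in every library but METTL4-si replicate 2, the one that stood apart by GATA3 and GREB1. Hypoxia was not called with all libraries (log2 fold change -0.69, SE 0.60, adjusted p = 0.379). It was called when either METTL4-si library was left out of the shared spread (adjusted p = 0.00129 and 0.00181, at the same log2 fold change). The METTL4-si difference was called with all libraries (log2 fold change 2.27, SE 0.60, adjusted p = 0.0264). Without METTL4-si replicate 2 it was 1.15 and still called (adjusted p = 0.000328), and without either hypoxic Scramble-si library it was not (adjusted p = 0.110 without replicate 1 and 0.151 without replicate 2). METTL4-si against normoxia was 1.57 and not called (SE 0.60, adjusted p = 0.0580). It was called by edgeR on the recovered reads (2.59, adjusted p = 0.0234) and was 0.45 without METTL4-si replicate 2 (adjusted p = 0.0574). The METTL4-si difference of CA2 differed between the lines by 3.12 on the log2 scale (SE 0.76, adjusted p = 0.0152). That call was lost without hypoxic replicate 2 of FADU or of BFTC909. Without the 3 libraries that stood apart the value was 2.36, with 1 library left in FADU normoxia and in both METTL4-si groups. The hypoxia response was not called different between the lines with all libraries (adjusted p = 0.180). Without those 3 libraries the lines differed in it by -1.5000.

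SLC16A3, the lactate carrier of glycolytic cells, followed CA9 in direction with a smaller range. In FADU it was 114 and 101 in normoxia, 324 and 358 in hypoxia, and 119 and 118 in the libraries labelled METTL4-si. The values of BFTC909 were 161 and 166 in normoxia, 273 and 304 in hypoxia, and 134 and 168 in the libraries labelled METTL4-si. Hypoxic Scramble-si libraries were the highest in both lines, and in BFTC909 the METTL4-si and normoxic libraries overlapped. The rise was 3.18-fold in FADU (log2 fold change 1.66, SE 0.08, adjusted p = 0.000125) and 1.77-fold in BFTC909 (log2 fold change 0.81, SE 0.11, adjusted p = 0.00102). In the libraries labelled METTL4-si the level was 2.88-fold lower in FADU (log2 fold change -1.51, SE 0.08, adjusted p = 0.000150) and 1.91-fold lower in BFTC909 (log2 fold change -0.94, SE 0.11, adjusted p = 0.000928).

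Unlike for CA9, the hypoxic rise of SLC16A3 was smaller in BFTC909 than in FADU, by -0.85 on the log2 scale (SE 0.15, adjusted p = 0.00311). The METTL4-si difference, lower in both lines, differed by 0.58 (SE 0.15, adjusted p = 0.0198). That call was lost without FADU hypoxia replicate 2 (0.51, adjusted p = 0.0845) or BFTC909 hypoxia replicate 1 (0.50, adjusted p = 0.0793). METTL4-si against normoxia was not called in either line (log2 fold change 0.15, SE 0.08, adjusted p = 0.231 in FADU, and -0.12, SE 0.11, adjusted p = 0.359 in BFTC909, or -0.28, adjusted p = 0.000701 and under the 1.3-fold limit, without METTL4-si replicate 2).

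SLC16A1, the carrier found in most tissues, changed less than SLC16A3. In FADU it was 428 and 486 in normoxia, 595 and 609 in hypoxia, and 482 and 613 in the libraries labelled METTL4-si. The BFTC909 values were 167 and 174 in normoxia, 221 and 215 in hypoxia, and 184 and 147 in the libraries labelled METTL4-si. Hypoxic libraries were above normoxic ones in both lines, by 1.32-fold in FADU (log2 fold change 0.40, SE 0.12, adjusted p = 0.0573) and 1.28-fold in BFTC909 (log2 fold change 0.35, SE 0.10, adjusted p = 0.0272, under the 1.3-fold limit), and neither was called. FADU hypoxia was called when either METTL4-si library was left out (adjusted p = 0.000743 and 0.00102, at the same log2 fold change) and with the replicate number as a block (adjusted p = 0.0256), and without both libraries that stood apart it was 0.31, under the limit. In the BFTC909 libraries labelled METTL4-si it was 1.32-fold lower and called (log2 fold change -0.41, SE 0.10, adjusted p = 0.0221). That call was lost without any of 5 of the 6 libraries, and without METTL4-si replicate 2 the difference was -0.25. In FADU the libraries labelled METTL4-si overlapped the hypoxic ones (log2 fold change -0.15, SE 0.12, adjusted p = 0.392, or 0.03, adjusted p = 0.715, without the libraries that stood apart). Against normoxia they were 0.25 higher (SE 0.12, adjusted p = 0.170), and 0.43 and called without METTL4-si replicate 1 (adjusted p = 0.00195).

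BSG, the partner of both carriers, had the highest value of the members per kb of annotated exon in every group but hypoxic BFTC909 cells. In FADU it was 508 and 477 in normoxia, 429 and 467 in hypoxia, and 492 and 495 in the libraries labelled METTL4-si, and neither hypoxia (log2 fold change -0.14, SE 0.07, adjusted p = 0.217) nor METTL4-si (0.14, SE 0.07, adjusted p = 0.181) was called. In BFTC909 it was 292 and 300 in normoxia, 374 and 392 in hypoxia, and 475.9 and 514.0 in the libraries labelled METTL4-si. The 3 groups of BFTC909 did not overlap, and METTL4-si was the highest. Both steps missed the 1.3-fold limit (log2 fold change 0.37, SE 0.07, adjusted p = 0.00373 for hypoxia, and 0.37, SE 0.07, adjusted p = 0.00602 for METTL4-si), while METTL4-si against normoxia was 1.67-fold higher and called (log2 fold change 0.74, SE 0.07, adjusted p = 0.000129). The response to hypoxia differed between the lines by 0.51 (SE 0.09, adjusted p = 0.00402), and the METTL4-si difference by 0.23 (SE 0.09, adjusted p = 0.105).

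The balance of carriers and partner was taken as ratios of values per kb of exon within a library. The lengths are those of all annotated exons, 9236 bases for SLC16A3, 6347 for SLC16A1 and 4418 for BSG. Whether a ratio lies above or below 1 therefore depends on which exons the cells use, which was not examined. SLC16A3 over SLC16A1 was 0.183 and 0.142 in FADU normoxia, 0.374 and 0.404 in hypoxia, and 0.170 and 0.132 in the libraries labelled METTL4-si. The BFTC909 ratios were 0.663 and 0.653, 0.848 and 0.973, and 0.502 and 0.783 in the same order. Among these Scramble-si and METTL4-si libraries, the hypoxic Scramble-si ones had the highest ratios of each line. Within the same set, the ratios of BFTC909 were all above those of FADU. BSG over both carriers together was 1.44 and 1.23 in FADU normoxia, 0.753 and 0.785 in hypoxia, and 1.25 and 1.03 in the libraries labelled METTL4-si. For BFTC909 the values were 1.509 and 1.495, 1.32 and 1.33, and 2.48 and 2.82, so the libraries labelled METTL4-si of this line had more basigin RNA for each unit of carrier RNA than any other library. No test was run on these ratios.

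**Figure D3:**
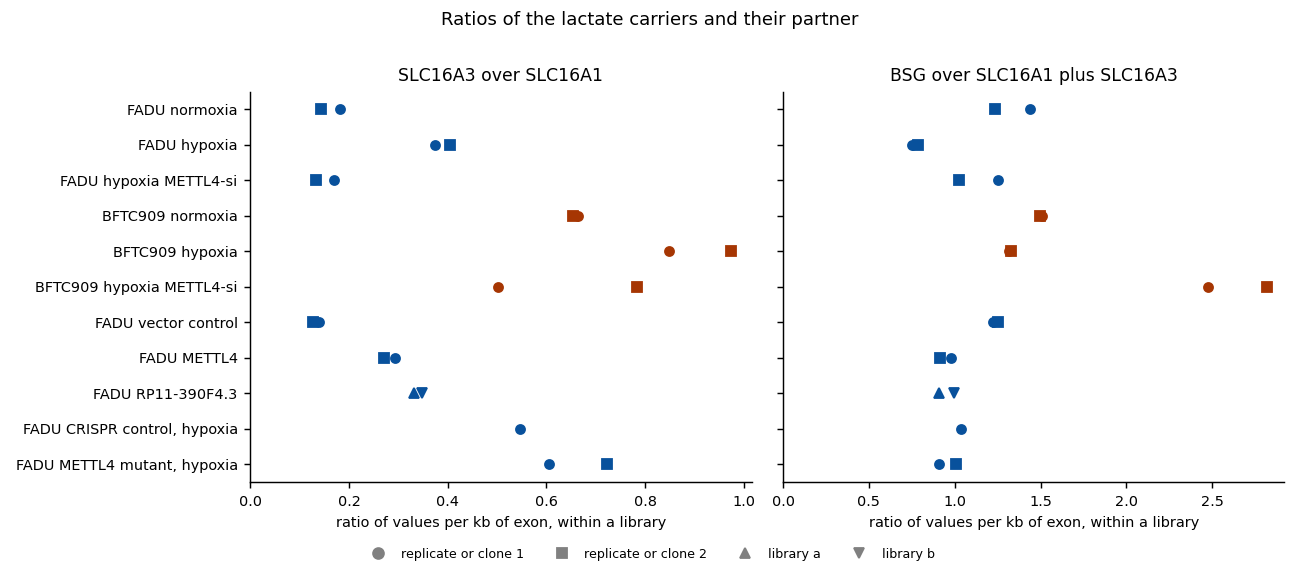
Ratio of SLC16A3 to SLC16A1 (left) and of BSG to the sum of SLC16A1 and SLC16A3 (right), from values per kb of exon within each library, with a point for each library and FADU in blue and BFTC909 in brown. The left ratio was highest in hypoxic BFTC909 cells, at 0.848 and 0.973, and the right ratio in the BFTC909 libraries labelled METTL4-si, at 2.48 and 2.82.

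SLC4A2, the chloride and bicarbonate exchanger, went the opposite way from CA9 and SLC16A3 in FADU. It was 160 and 156 in normoxia, 101 and 104 in hypoxia, and 158 and 149 in the libraries labelled METTL4-si. Hypoxic libraries stood below the rest. It fell 1.54-fold with hypoxia (log2 fold change -0.62, SE 0.06, adjusted p = 0.00164) and was 1.497-fold higher in the libraries labelled METTL4-si (log2 fold change 0.58, SE 0.06, adjusted p = 0.00122). The BFTC909 values were 125 and 123 in normoxia, 151 and 157 in hypoxia, and 128 and 157 in the libraries labelled METTL4-si. Hypoxia was 1.24-fold higher and under the limit (log2 fold change 0.31, SE 0.10, adjusted p = 0.0347), and METTL4-si was not called (log2 fold change -0.12, SE 0.10, adjusted p = 0.395, or -0.26 and under the limit without METTL4-si replicate 2). The lines differed in the response to hypoxia by 0.93 (SE 0.12, adjusted p = 0.000721) and in the METTL4-si difference by -0.69 (SE 0.12, adjusted p = 0.00305).

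SLC4A7, the sodium bicarbonate importer, did not pass the test with hypoxia and was called higher in the libraries labelled METTL4-si than in hypoxic Scramble-si libraries of both lines. In FADU it was 143 and 153 in normoxia, 150 and 143 in hypoxia, and 212 and 263 in the libraries labelled METTL4-si. BFTC909 cells had 114 in both normoxic libraries, 107 and 92.4 in hypoxia, and 159 and 133 in the libraries labelled METTL4-si. The libraries labelled METTL4-si were the highest in each line, and the normoxic and hypoxic FADU libraries overlapped. METTL4-si against hypoxia was 1.62-fold in FADU (log2 fold change 0.69, SE 0.11, adjusted p = 0.00410) and 1.47-fold in BFTC909 (log2 fold change 0.55, SE 0.10, adjusted p = 0.00748). Against normoxia it was called in FADU (log2 fold change 0.67, SE 0.11, adjusted p = 0.00681) and under the limit in BFTC909 (log2 fold change 0.35, SE 0.10, adjusted p = 0.0228). The FADU call against normoxia was lost without either normoxic library (adjusted p = 0.0595 without replicate 1 and 0.0538 without replicate 2), and the BFTC909 call against hypoxia without hypoxia replicate 2 (log2 fold change 0.44, adjusted p = 0.0774). The lines were not called different in either response (adjusted p = 0.469 for hypoxia and 0.568 for METTL4-si).

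**Figure D4:**
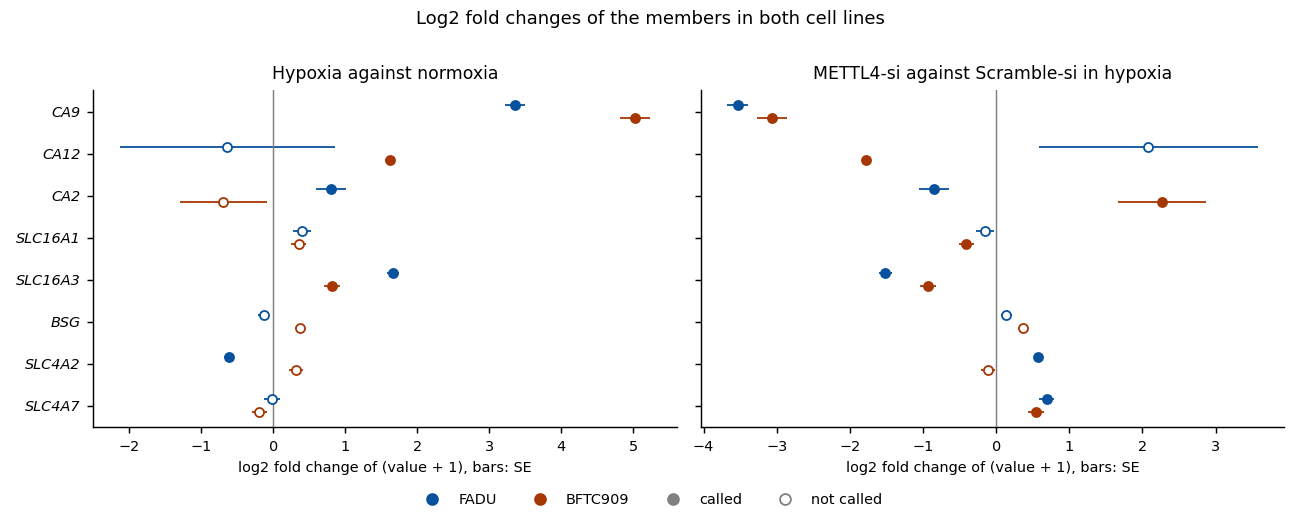
Log2 fold changes of the 8 genes on the log2(value + 1) scale with their SE, for hypoxia against normoxia (left) and METTL4-si against Scramble-si in hypoxia (right), in FADU (blue) and BFTC909 (brown), filled where called. CA9 and SLC16A3 were called up with hypoxia in both lines and lower in libraries labelled METTL4-si, where SLC4A7 was called up in both, and the bar of CA12 in FADU spans 3 log2 units, its 2 high libraries being those with TFF1.

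Counted together, hypoxia raised 3 of 8 members in FADU (CA9, CA2 and SLC16A3) and lowered 1 (SLC4A2), where 9.73% of all genes tested were called higher and 9.65% lower. In BFTC909 it raised 3 (CA9, CA12 and SLC16A3) and lowered none, beside 17.9% and 18.3% of all genes, or 21.6% and 14.2% with median-centred libraries, a scaling that called SLC16A1, BSG and SLC4A2 as well and so 6 members. In the FADU libraries labelled METTL4-si against hypoxia, 3 members were called lower (CA9, CA2 and SLC16A3) and 2 higher (SLC4A2 and SLC4A7), beside 15.3% lower and 12.5% higher. In those of BFTC909, 4 were lower (CA9, CA12, SLC16A1 and SLC16A3) and 2 higher (CA2 and SLC4A7), beside 11.7% and 13.2%, or 16.9% and 10.0% with median-centred libraries. Against normoxia, the libraries labelled METTL4-si had 1 member higher in FADU (SLC4A7, beside 8.13% higher and 13.5% lower) and 2 in BFTC909 (CA9 and BSG, beside 24.4% and 23.2%). The FADU count against normoxia was 0 without either normoxic library, 3 without METTL4-si replicate 1 and 2 without METTL4-si replicate 2. The response to hypoxia was called larger in BFTC909 for 3 members (CA9, BSG and SLC4A2) and smaller for 1 (SLC16A3), on the signed log2 scale, beside 11% and 12.8% of genes, and the METTL4-si difference for 2 (CA2 and SLC16A3) and 1 (SLC4A2), beside 14.4% and 9.12%. The METTL4-si count was 1 in place of 3 without FADU hypoxia replicate 2. The median log2 fold change of the members with hypoxia was 0.19 in FADU and 0.36 in BFTC909, against -0.03 and -0.02 over all genes, and for libraries labelled METTL4-si it was 0.00 and -0.26 against 0.02 and 0.01.

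Ranked per kb of exon, the FADU members in normoxia ran from BSG (111) and SLC16A1 (72.0) through SLC4A2 (20.9), CA2 (18.6), SLC4A7 (15.4) and SLC16A3 (11.6) to CA9 (1.52) and CA12 (0.434), and no neighbours overlapped. In FADU hypoxia the order was BSG (101), SLC16A1 (94.9), SLC16A3 (36.9), CA2 (32.7), CA9 (21.5), SLC4A7 (15.2), SLC4A2 (13.6) and CA12 (0.107), again without overlap. SLC16A3 moved from the sixth to the third place and CA9 from the seventh to the fifth. In BFTC909 normoxia it was BSG (67.0), CA12 (46.8), SLC16A1 (26.9), SLC16A3 (17.7), SLC4A2 (16.4), SLC4A7 (11.8), CA2 (0.668) and CA9 (0.480), the last pair overlapping. In BFTC909 hypoxia it was CA12 (144), BSG (86.7), CA9 (34.5), SLC16A1 (34.4), SLC16A3 (31.3), SLC4A2 (20.3), SLC4A7 (10.4) and CA2 (0.227), with overlap of CA9 and SLC16A1 only. Exon length was that of all annotated exons of a gene, so a gene with rarely used exons ranks too low.

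In normoxic FADU cells with METTL4-OE, CA9 and SLC16A3 were higher than in control cells, and RP11-390F4.3-OE cells had more of both. CA9 was 0.906 and 0.744 in the control libraries (19 and 16 reads), 9.39 and 9.15 with METTL4-OE, and 13.6 and 13.2 with RP11-390F4.3-OE. SLC16A3 was 88.7 and 80.0, 175 and 167, and 249 and 248 in the same order. The 3 groups did not overlap for either gene. CA9 was 11.2-fold higher with METTL4-OE (log2 fold change 2.49, SE 0.12, adjusted p = 1.85e-09) and 16.3-fold higher with RP11-390F4.3-OE (log2 fold change 2.98, SE 0.12, adjusted p = 1.91e-10). SLC16A3 was 2.03-fold higher (log2 fold change 1.02, SE 0.05, adjusted p = 4.78e-09) and 2.94-fold higher (log2 fold change 1.55, SE 0.05, adjusted p = 4.73e-11). Between the overexpressing cells, RP11-390F4.3-OE was called higher for CA9 (log2 fold change 0.49, SE 0.12, adjusted p = 0.00288) and SLC16A3 (log2 fold change 0.53, SE 0.05, adjusted p = 1.72e-06), and the CA9 difference was 0.37 and under the limit with a pseudocount of 5.

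CA2 was the member called lower with METTL4-OE and higher with RP11-390F4.3-OE. It was 35.9 and 39.2 in control cells, 20.8 and 23.8 with METTL4-OE, and 60.7 and 59.5 with RP11-390F4.3-OE. It was 1.68-fold lower with METTL4-OE (log2 fold change -0.73, SE 0.07, adjusted p = 3.10e-06) and 1.60-fold higher with RP11-390F4.3-OE (log2 fold change 0.67, SE 0.07, adjusted p = 4.68e-06), a difference of 1.39 between them (SE 0.07, adjusted p = 3.52e-09). SLC4A2 was 122 and 112 in control cells, 110 and 101 with METTL4-OE, and 81.2 and 88.3 with RP11-390F4.3-OE. Its lower level was called with RP11-390F4.3-OE (log2 fold change -0.47, SE 0.06, adjusted p = 2.34e-05) and not with METTL4-OE (log2 fold change -0.15, SE 0.06, adjusted p = 0.0603).

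No other member passed the 1.3-fold limit against control cells. SLC16A1 was 437 and 432, 412 and 425, and 515 and 490 in control, METTL4-OE and RP11-390F4.3-OE cells, BSG was 423 and 424, 362 and 342, and 434 and 458, and SLC4A7 was 159 and 138, 154 and 157, and 192 and 187. BSG was 0.27 lower with METTL4-OE on the log2 scale (log2 fold change -0.27, SE 0.05, adjusted p = 0.000434), under the limit. SLC4A7 was 0.36 higher with RP11-390F4.3-OE (SE 0.06, adjusted p = 0.000182), under the limit, and past it at 0.46 without control replicate 1. CA12 did not pass the filter of a value of 1 in 2 libraries and was not tested. It had 2 to 16 reads in 5 libraries and 122 reads in RP11-390F4.3-OE library b, where the breast marker sum was 141, against 45.1 to 92.5 in the other 5 libraries and 92.5 in library a. Library b was not among the libraries counted above as standing apart, and the correlations without those still held it.

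Of 7 members tested, METTL4-OE cells had 2 called higher than control cells (CA9 and SLC16A3) and 1 lower (CA2), beside 8% of all genes higher and 10.5% lower. RP11-390F4.3-OE cells had 3 called higher (CA9, CA2 and SLC16A3) and 1 lower (SLC4A2), beside 16.5% and 12.5%, or 12.8% and 18.2% with median-centred libraries. Against METTL4-OE, RP11-390F4.3-OE had 3 members higher (CA9, CA2 and SLC16A3) and none lower, beside 18.4% and 13.3%, or 14.5% and 19.1% with median-centred libraries, which called SLC4A2 lower (log2 fold change -0.40, adjusted p = 5.13e-05). Both comparisons with control cells share the 2 control libraries. SLC16A3 over SLC16A1 per kb was 0.140 and 0.127 in control cells, 0.292 and 0.271 with METTL4-OE and 0.332 and 0.348 with RP11-390F4.3-OE, so each overexpressing library was above each control library. BSG over both carriers was 1.22 and 1.25, 0.977 and 0.911, and 0.910 and 0.996. The median log2 fold change of the 7 members was -0.05 with METTL4-OE and 0.36 with RP11-390F4.3-OE, against 0.01 in both over all genes.

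The METTL4 mutant clones in hypoxia had less CA9 and CA2 than the CRISPR control. With 1 library each these differences have no replicate check and no p-value, and each clone is compared with the control as a log2 ratio of (value + 1). CA9 was 29.8 in the control (984 reads), 10.4 in clone 1 (349 reads) and 15.2 in clone 2 (477 reads), which is 2.87-fold and 1.96-fold lower. CA2 was 17.7 in the control, 8.97 in clone 1 and 7.33 in clone 2, which is 1.98-fold and 2.42-fold lower. These were the only members at least 1.3-fold lower in both clones, 2 of 7, and none was that much higher, beside 11.7% and 10.3% of 13461 genes.

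SLC16A3 was 187 in the control, 162 in clone 1 and 182 in clone 2, so the clones lay within 1.15-fold of the control. SLC16A1 was 235, 183 and 173 in this order, 1.28-fold lower in clone 1 and 1.36-fold in clone 2. BSG was 261, 186 and 209, 1.40-fold and 1.25-fold lower. SLC4A2 was 58.9, 59.6 and 63.5, and SLC4A7 was 62.6, 68.7 and 59.5, with no common direction for the latter. SLC16A3 over SLC16A1 per kb was 0.547 in the control, 0.606 in clone 1 and 0.723 in clone 2. METTL4 RNA was 12.5, 15.9 and 10.6. The median log2 ratio of the 7 members, averaged over the clones, was -0.40, against 0.01 over all genes.

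**Figure D5:**
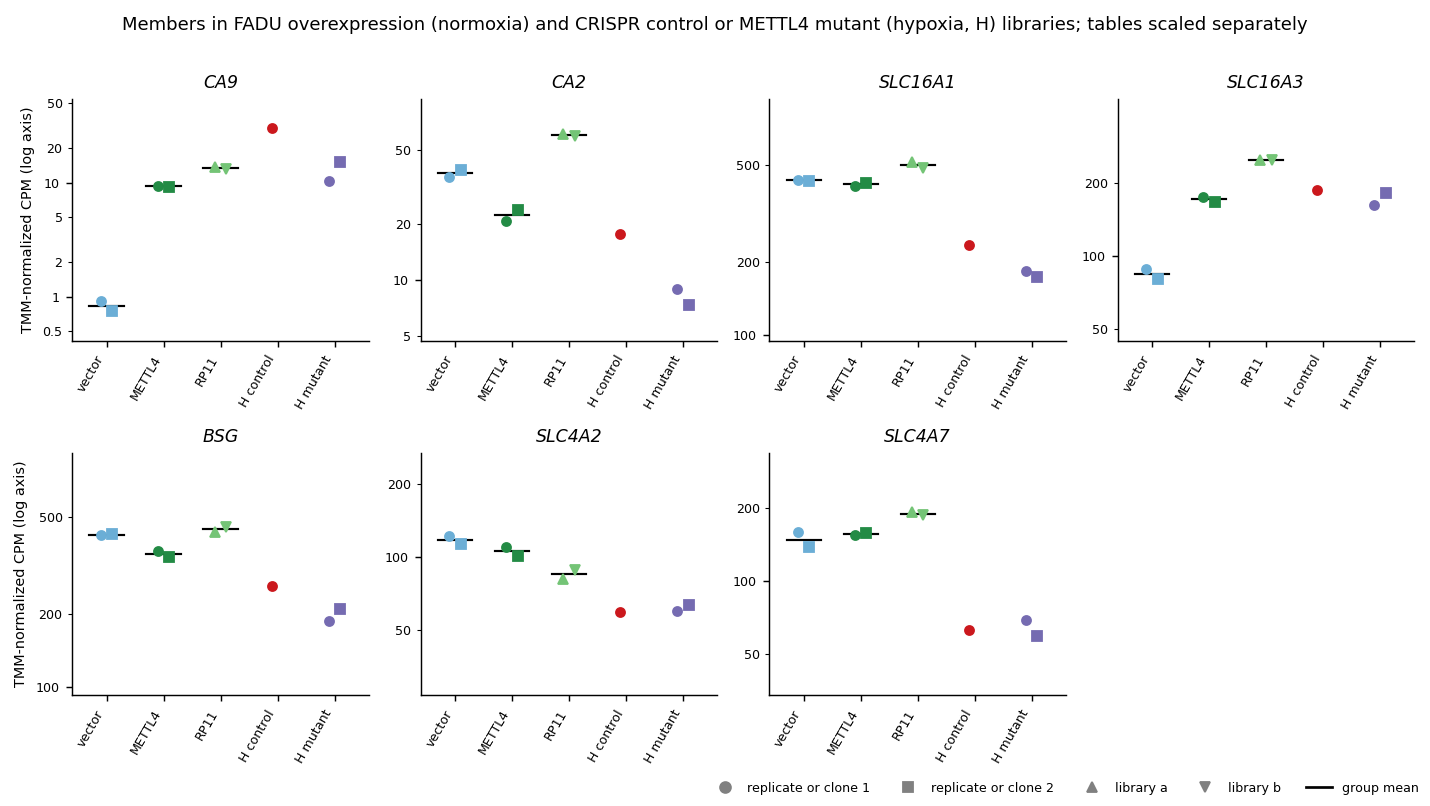
TMM-normalized CPM (log axis, a scale of its own for each gene) of 7 members in FADU cells: control (marked vector), METTL4-OE and RP11-390F4.3-OE libraries in normoxia with a line at the group mean, and the CRISPR control and both METTL4 mutant clones in hypoxia (H). The tables were scaled separately and are not compared with each other, and CA2 was lower with METTL4-OE, at 20.8 and 23.8, and higher with RP11-390F4.3-OE, at 60.7 and 59.5, than in control cells.

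The genes most like each member were found by the Pearson correlation of log2(value + 1), centred within each table, over the 18 libraries of the 3 tables with replicates, among 10792 genes. The libraries of a table share their scaling, so the values are a description. CA9 was most like SLC2A1 (r = 0.99), the glucose transporter GLUT1, followed by FAM162A and ZNF395 (0.98 each). SLC16A3 was most like HK2 (0.98), a hexokinase that starts glycolysis, followed by HERC3 and KDM3A (0.97 each). CA12 was most like CRIP2 (0.93), PRICKLE2 (0.91) and WIPI1 (0.89), at 0.83, 0.71 and 0.80 over the 15 libraries left without the 3 that stood apart. CA2 was most like USP43, FNBP1L and KDM2B (0.93 each), at 0.87, 0.88 and 0.81 over those 15. SLC16A1 was most like RBMS3 (0.89), COPZ2 (0.87) and USP28 (0.86), and BSG like COQ8B (0.98), GSDMD (0.97) and LGALS3BP (0.96). SLC4A2 was most like VASN (0.96), MARS1 and DAGLA (0.94 each), and SLC4A7 like TNFRSF10B (0.90), CD58 and CAPRIN2 (0.88 each).

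Other genes of acid and lactate handling were taken from 6 lists of 71 genes: other carbonic anhydrases, other lactate carriers with embigin and the lactate dehydrogenases, sodium proton exchangers with their partners, other SLC4 transporters, subunits of the vacuolar proton ATPase, and receptors for protons and lactate. With hypoxia in FADU, 5 of 44 tested were called higher and 4 lower (9.73% and 9.65% of all genes tested), and in BFTC909 9 of 38 and 6 of 38 (17.9% and 18.3%). Of the same genes, libraries labelled METTL4-si had 10 higher and 8 lower than hypoxic Scramble-si libraries in FADU (12.5% and 15.3%), and 5 and 5 in BFTC909 (13.2% and 11.7%). By list, hypoxia raised and lowered in FADU 0 and 0 of 3 other carbonic anhydrases, 1 and 1 of 5 lactate genes, 2 and 0 of 9 exchanger genes, 1 and 1 of 6 SLC4 genes, 1 and 2 of 20 ATPase subunits, and neither of 1 receptor. In BFTC909 it raised and lowered 2 and 0 of 3 other carbonic anhydrases, 1 and 1 of 3 lactate genes, 1 and 1 of 8 exchanger genes, 1 and 0 of 4 SLC4 genes, 3 and 4 of 18 ATPase subunits, and 1 and 0 of 2 receptors. The median log2 fold change over the 6 lists with hypoxia was 0.10 in FADU and 0.06 in BFTC909.

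LDHA, which makes lactate from pyruvate, was higher in hypoxia and lower in the libraries labelled METTL4-si in both lines, like SLC16A3. Unlike SLC16A3, it lay below normoxia in the libraries labelled METTL4-si of both lines. It was 834 and 862 in FADU normoxia, 2315 and 2401 in hypoxia, and 444 and 470 in the libraries labelled METTL4-si (log2 fold change 1.47, SE 0.07, adjusted p = 0.000124 for hypoxia, and -2.36, SE 0.07, adjusted p = 2.76e-05 for METTL4-si). The libraries labelled METTL4-si were also below normoxia (log2 fold change -0.89, SE 0.07, adjusted p = 0.00170). BFTC909 cells had 2205 and 2220, 3596 and 3657, and 1647 and 1312 (log2 fold change 0.71, SE 0.11, adjusted p = 0.00195, and -1.30, SE 0.11, adjusted p = 0.000251). SLC16A7 (MCT2), a lactate carrier of high affinity, went the other way in FADU, from 17.1 and 17.2 in normoxia to 9.88 and 9.35 in hypoxia and 28.7 and 27.3 in the libraries labelled METTL4-si (log2 fold change -0.77, SE 0.09, adjusted p = 0.00239, and 1.45, SE 0.09, adjusted p = 0.000210). The other genes named in FADU by the same rule, the 4 largest called changes with a mean of at least 5, were SLC4A11 (6.90 and 7.77, 2.52 and 2.92, 8.85 and 8.54) and ATP6V0A2 (59.9 and 65.5 to 45.3 and 39.7) for hypoxia, SLC9A2 (1.35 and 1.41 to 14.7 and 5.38, the first in the library that stood apart) for METTL4-si, and LDHB (912 and 1081 to 478 and 585) and CHP1 (105 and 114 to 66.9 and 63.0) for METTL4-si against normoxia.

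In BFTC909, HCAR1, a receptor for lactate, was 5.19 and 6.33 in normoxia, 13.2 in both hypoxic libraries, and 5.63 and 5.84 in the libraries labelled METTL4-si (log2 fold change 1.07, SE 0.12, adjusted p = 0.000554, and -1.07, SE 0.12, adjusted p = 0.000877). Hypoxia also raised SLC4A3 (8.23 and 7.80 to 12.8 and 13.9) and ATP6AP1 (62.2 and 62.1 to 94.97 and 96.5). The proton exchanger SLC9A7 was higher in the libraries labelled METTL4-si (8.38 and 8.46 to 20.8 and 24.8). Against normoxia, libraries labelled METTL4-si had less LDHB (616 and 615 to 346 and 257) and ATP6V1D (75.0 and 72.3 to 41.3 and 35.8), and more SLC9A7 and SLC4A3. METTL4-si against normoxia gave 7 higher and 6 lower of 44 in FADU (8.13% and 13.5% of all genes tested) and 12 and 8 of 38 in BFTC909 (24.4% and 23.2%).

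With METTL4-OE, 3 of 38 pathway genes were higher and 7 lower (8% and 10.5% of all genes tested), and with RP11-390F4.3-OE 5 and 5 (16.5% and 12.5%), the comparison between them giving 5 and 3 (18.4% and 13.3%). LDHA was 804 and 776 in control cells, 1961 and 1960 with METTL4-OE, and 1918 and 1825 with RP11-390F4.3-OE (log2 fold change 1.31, SE 0.05, adjusted p = 1.89e-10, and 1.24, SE 0.05, adjusted p = 1.98e-10). SLC16A7 was 18.7 and 16.1, 8.20 and 9.56, and 10.99 and 11.2 (log2 fold change -0.90, SE 0.10, adjusted p = 1.36e-05, and -0.60, SE 0.10, adjusted p = 0.000284). The other named genes were TCIRG1 (48.4 and 47.2 to 34.7 and 28.2) and ATP6V1D (45.7 and 48.2 to 64.3 and 69.4) with METTL4-OE, and ATP6V0A2 (55.8 and 57.7 to 34.5 and 32.4) and ATP6V1G1 (26.4 and 23.2 to 36.0 and 36.1) with RP11-390F4.3-OE. Between the overexpressing cells they were ATP6V0A2, TCIRG1, SLC4A3 (5.37 and 5.44 to 8.25 and 8.31) and SLC9A3R1 (25.8 and 27.1 to 36.6 and 39.0). In the mutant table, 4 of 38 genes were at least 1.3-fold lower in both clones (11.7% of all genes), among them TCIRG1 (44.02 to 29.5 and 31.2) and ATP6AP1 (71.6 to 54.6 and 53.7), and 1 was higher (10.3% of all genes), EMB (42.6 to 63.0 and 71.5), which codes for embigin, a partner of lactate carriers.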

How the data were processed

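RNA was made into libraries with the Kapa HyperPrep kit after removal of ribosomal RNA and sequenced in pairs. The submitters' processing notes name Trim Galore, HISAT2, HTSeq, edgeR and hg19, and versions, annotation and strand setting of the counting are not given in the sources used here. What the authors deposited is a signal in the unit of TMM-normalized CPM, and their 4 tables of comparisons (log2 fold changes, mean log2 CPM, F scores, p-values) were not used. In all 21 libraries the values checked came out as whole multiples (within 0.02) of what 1 read is worth (100% of them). The check left out the values with the most reads. Counts were recovered from the authors' values in this way. In the mutant table, which keeps only genes with at least 10 reads in every library, 40.9% to 43.0% of the column belonged to no gene and was left out.

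Symbols came from the GENCODE annotation on GRCh37. Genes that reached a value of 1 in 2 or more libraries of a table entered limma 3.58.1 (trend) on log2(value + 1) in R 4.3.3, 3 groups sharing 1 spread. There were 9 comparisons within tables and 2 between lines, of 12 libraries together. Fits were run on simulated counts, with independent libraries drawn from a common mean profile apart from the genes made to change. Such data lack the marker differences between replicates seen here, so they do not test the fits against these. Pathway genes were named as the 4 largest called changes with a mean of at least 5, and like genes as the 3 with the highest correlation. A gene that this rule names is not reported here. RP11-390F4.3-OE columns were assigned by elimination and called a and b. Members, lists and the doubted libraries were chosen with earlier results of these data known. Alternatives were pseudocounts of 0.1 and 5, filters, median-centring, no trend, compared groups alone, edgeR 4.0.16 on recovered reads (TMM or DESeq2 1.42.0 size factors), a replicate block (for RP11-390F4.3-OE by the number in the column name, added after seeing the data), unadjusted p, a 2-fold limit and leaving out libraries.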

Additional observations from a re-analysis of the deposited data

Results flagged for a closer look

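The following members and pathway genes differed between BFTC909 and FADU in a comparison, by the interaction term of limma with adjusted p-values over 13595 genes, and values are BFTC909 minus FADU on the log2 scale. For hypoxia these were CA9 (1.67, adjusted p = 0.00213), SLC16A3 (-0.85, adjusted p = 0.00311), BSG (0.51, adjusted p = 0.00402), SLC4A2 (0.93, adjusted p = 0.000721), LDHA (-0.76, adjusted p = 0.00323), SLC9A7 (-1.01, adjusted p = 0.00110), ATP6V1D (-0.95, adjusted p = 0.000311) and ATP6AP1 (0.89, adjusted p = 0.00546). For libraries labelled METTL4-si against Scramble-si in hypoxia they were CA2 (3.12, adjusted p = 0.0152), SLC16A3 (0.58, adjusted p = 0.0198), SLC4A2 (-0.69, adjusted p = 0.00305), LDHA (1.06, adjusted p = 0.000627), SLC9A7 (1.31, adjusted p = 0.000305), CHP1 (0.81, adjusted p = 0.000375) and ATP6V0B (-0.86, adjusted p = 0.000916). Over the 33 pathway genes tested, 3 were called higher and 6 lower for hypoxia (11% and 12.8% of all genes), and 11 and 6 for METTL4-si (14.4% and 9.12%). CA9 and SLC16A3, both raised by hypoxia in each line, differed between the lines in opposite directions. The CA9 difference for hypoxia ran from 0.99 to 2.42 over the alternatives. Line and table cannot be told apart in these contrasts, since each line has a table of its own.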

How the results depend on the processing

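Of 1015 member values under alternatives other than leaving out 1 library, 954 kept their direction and their side of the threshold, 27 lost the call, 22 gained it and 12 reversed. Of 606 with 1 library left out, 551 kept both and 16 reversed. METTL4 reversed in 1 case of the first kind and 3 of the second. Of the reversed values, CA12 in FADU hypoxia without the libraries that stood apart was called, and the others were called neither before nor after. Without the 3 libraries that stood apart by markers, the reversed values were CA12 in FADU hypoxia (0.74) and METTL4-si (-0.27), SLC16A1 in FADU METTL4-si (0.026), in BFTC909 METTL4-si against normoxia (0.11) and in the hypoxia difference between lines (0.042), and METTL4 in FADU METTL4-si (0.060). SLC4A7 in FADU hypoxia was 0.031 with median-centred libraries, 0.014 by edgeR and 0.0070 by edgeR with DESeq2 size factors, and CA2 in FADU METTL4-si against normoxia was 0.0023 and 0.0070 by the same. BSG with RP11-390F4.3-OE was -0.0075 with median-centred libraries, and CA9 in the METTL4-si difference between lines -0.016 with a pseudocount of 5. With 1 library left out, values on both sides of 0 ranged, in FADU hypoxia, from -2.01 to 0.74 for CA12 and -0.069 to 0.035 for SLC4A7. In FADU METTL4-si they ranged from -0.27 to 4.43 for CA12, -0.32 to 0.026 for SLC16A1 and -0.094 to 0.060 for METTL4, and against normoxia from -0.91 to 3.79 for CA12, -0.41 to 0.30 for CA2, -0.041 to 0.049 for BSG and -0.084 to 0.0050 for SLC4A2. In BFTC909 METTL4-si they ranged from -0.26 to 0.031 for SLC4A2, and against normoxia from -0.22 to 0.11 for SLC16A1 and -0.28 to 0.034 for SLC16A3. SLC4A7 ranged from -0.028 to 0.18 with METTL4-OE and from -0.30 to 0.012 in the METTL4-si difference between lines, and the hypoxia difference from -0.14 to 0.042 for SLC16A1 and -0.060 to 0.21 for METTL4. With a 2-fold limit in place of 1.3-fold, members called numbered 2 for FADU hypoxia, 2 for FADU METTL4-si, 0 for FADU METTL4-si against normoxia, 3 for BFTC909 METTL4-si, 1 for BFTC909 METTL4-si against normoxia, 2 for RP11-390F4.3-OE, 1 for RP11-390F4.3-OE against METTL4-OE, and 1 for each difference between lines. Median-centred libraries gave 6 for BFTC909 hypoxia. Without the libraries that stood apart, 2 members were called for FADU METTL4-si against normoxia (SLC4A7 and CA2). With 1 library left out, that count ranged from 0 to 3, and the count for the METTL4-si difference between lines from 1 to 4. Over all genes, calls numbered 2894 to 7085 in the comparisons within tables, and 161 to 1484 with a 2-fold limit. Leaving out 1 library gave as few as 752 for FADU hypoxia (without hypoxia replicate 2, 3163 with all), 2035 for FADU METTL4-si (without hypoxia replicate 2, 4534 with all), 759 for FADU METTL4-si against normoxia (without normoxia replicate 2, 3531 with all), 3447 for BFTC909 hypoxia (without normoxia replicate 1, 5382 with all) and 1855 for BFTC909 METTL4-si (without hypoxia replicate 2, 3704 with all). The overexpression comparisons gave 2894, 4539 and 4950 calls, and 1621, 2607 and 2934 with a pseudocount of 5. edgeR on recovered reads changed no such count by over 1.5 times. The causes were not tested. With 2 libraries per group, and 8 and 28 reads of CA9 in normoxic and 13 and 6 of CA2 in hypoxic BFTC909 cells, small changes at these levels were not detectable.

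Libraries with the same replicate number were not treated as pairs. Deviations of same-numbered libraries correlated at 0.648 between FADU normoxia and METTL4-si, whose replicates 1 share the breast markers such as TFF1, and from -0.0652 to 0.154 elsewhere. With the replicate block, SLC16A1 in FADU hypoxia (log2 fold change 0.40, adjusted p = 0.0256) and CA2 in BFTC909 METTL4-si against normoxia (1.57, adjusted p = 0.0372) gained a call, and no other member value changed its call. The labels' replicate numbers could not be given to the RP11-390F4.3-OE columns, but their column names end in 1 and 2. A replicate block by those numbers, chosen after seeing the data, gave the same 4 members called against control (3 higher, 1 lower) and 3 against METTL4-OE as without it, and no member value changed its call.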
